A study of Saccharomyces cerevisiae with 66 samples.

Results

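The middle and late sporulation genes described here are 43 named genes of budding yeast (Saccharomyces cerevisiae) that act while spores are packaged. They were found by name among the 6171 gene rows of the deposited count table, and all 43 had a row. Their roles fall into 6 groups, with 7 kinases, regulators and RNA-binding proteins, 4 components of the meiotic outer plaque, 3 proteins of the leading edge, 12 genes for prospore membrane formation, 13 spore wall genes and 4 further sporulation-specific genes. The list was drawn up by known role, with earlier results of these data known.

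The study sequenced poly(A)-selected RNA from diploid cells 4 h after they were moved into sporulation medium, in 66 libraries from 11 strains. Its growth protocol describes the cells as held in early meiosis. Each strain was sampled with indole-3-acetic acid (IAA, an auxin) and with the solvent DMSO, in 3 replicates per group, so there were 22 groups. All strains were labelled as MATa/alpha diploids, with ho::LYS2 and the markers trp1::hisG, leu2::hisG, ura3 and lys2, and with a plasmid at his3. The WT strain carried the TIR ligase, per its titles, and its genotype label lists no tagged target. The strains XRN1, RAT1, RRP6, DCP2, PAT1, LSM1, PAB1, NOT5 and POP2 each carried that gene fused to 3V5-IAA7 with a KanMX marker, while the genotype label of the CAF40 libraries lists no fusion and their group rests on the title. The targets belong to mRNA turnover machineries: CAF40, POP2 and NOT5 to the Ccr4-Not deadenylase, DCP2 is the decapping enzyme, LSM1 and PAT1 activate decapping, PAB1 is the poly(A) binding protein, XRN1 and RAT1 are 5′ to 3′ exonucleases, and RRP6 is a nuclear exosome exonuclease. Copper sulphate (50 µM) and IAA (500 µM) were added 3 h after transfer, per the labels' protocol, and whether DMSO cultures received copper is not stated. IAA makes the ligase mark an IAA7-tagged protein for destruction, and the protein itself was not measured here. No label says that replicates came from separate clones or cultures, so the p-values measure the spread between these libraries, which may be technical.

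Sporulation runs as a cascade. The regulator Ime1 and the kinase Ime2 start early meiotic genes, whose promoters often hold a URS1 site. The transcription factor Ndt80 then switches on the middle genes at the middle sporulation element, which the repressor Sum1 occupies beforehand. Middle genes build the prospore membrane, a new double membrane that grows from the spindle pole body around each nucleus, and late genes then lay down the spore wall of glucan, chitosan and dityrosine.

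The middle sporulation element was searched on both strands of the 250 bases before each start codon as GNCACAAAA, GNCACAAAT, GNCGCAAAA or GNCGCAAAT. It occurred before 24 of the 43 members (55.8%), before 272 of 6001 protein-coding genes (4.53%) and before 0 of 16 early meiotic genes. The URS1 core, GGCGGC, showed the other distribution, with 4 of 43 members (9.30%), 250 of 6001 genes (4.17%) and 11 of 16 early meiotic genes (68.8%). A match is a description of the letters in this window and not a measured binding site. Shown are the windows of the 8 members with the largest scatter between libraries among those that hold a match, then CRR1, which fell in most strains with IAA, and the site that SPS18 and SPS19 share. The sequences are from RefSeq (R64, S288C), read 5′ to 3′ on the gene's strand, and capitals mark the element, which reads TTTTGTG or a close form where the match is on the opposite strand.
SPS4 (minus strand, chrXV:903043-903081): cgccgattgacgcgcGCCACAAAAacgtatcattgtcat
SPS2 (minus strand, chrIV:1485311-1485349): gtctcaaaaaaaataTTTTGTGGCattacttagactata
SMK1 (plus strand, chrXVI:666185-666223): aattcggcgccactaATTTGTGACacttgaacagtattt
SMA2 (minus strand, chrXIII:141674-141712): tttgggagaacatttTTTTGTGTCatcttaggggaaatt
SPO77 (plus strand, chrXII:807218-807256): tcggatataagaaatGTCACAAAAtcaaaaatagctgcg
CDA2 (plus strand, chrXII:747755-747793): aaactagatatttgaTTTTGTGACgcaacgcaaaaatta
SPR3 (plus strand, chrVII:607525-607562): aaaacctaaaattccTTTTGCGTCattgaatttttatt
SPO19 (plus strand, chrXVI:304208-304246): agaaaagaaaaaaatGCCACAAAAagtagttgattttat
CRR1 (minus strand, chrXII:568048-568086): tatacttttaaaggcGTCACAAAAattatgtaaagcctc
SPS19 (plus strand, chrXIV:259362-259400): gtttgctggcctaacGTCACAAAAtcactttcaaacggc
SPS18 is transcribed away from SPS19 across a gap of 300 bases, and both genes hold this same element. SPS1 and SPS2 are also neighbours, on the same strand, and DIT1 and DIT2 are divergent neighbours.

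Depth ran from 12.6 M to 28.3 M counts per library (M stands for 1e+06), with a median of 20.7 M. A floor of 3 counts corresponded to 0.106 to 0.238 CPM (counts relative to the library total after scaling by the trimmed mean of M-values, in the usual per-million unit), and this floor covers counting error only. All 43 members passed the low-count filter, and SPO77 was the only member with a library at 0, in 1 library. The summed level of all members ranged from 861 to 24442 CPM over the 66 libraries (median 4333). The summed level of 16 early meiotic genes ranged from 2299 to 17356 CPM, that of 8 haploid mating genes from 19.1 to 87.1 CPM, and that of 5 G1 cyclins of mitotic growth from 56.2 to 139 CPM. The early meiotic genes were thus abundant in the libraries, and the members ran from low to high levels. RAT1 DMSO replicates 1 and 2 and XRN1 DMSO replicate 3 stood apart from the other DMSO libraries by their level of CUP1-1, a copper-induced metallothionein gene, at 29.1, 82.6 and 176 CPM against 4.37 to 16.5 CPM in the other 30 DMSO libraries.

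In the WT strain with DMSO the members spanned a wide range of levels per length. AMA1, the meiosis-specific activator of the anaphase-promoting complex, stood at 469 ± 33.4 CPM per kilobase (SD, n = 3). SPO1, a phospholipase-like protein of spindle pole body and prospore membrane formation, stood at 410 ± 5.57, and DON1, a leading edge coat protein, at 275 ± 25.4 CPM per kilobase. SPS19, a peroxisomal 2,4-dienoyl-CoA reductase, and SPS4, a sporulation-specific protein, followed at 202 ± 22.8 and 185 ± 142 CPM per kilobase. The place of SPS4 in this order is not separated by its spread, since its SD covers the levels of DON1 and SPS19. At the other end were SPO75 (2.07 ± 0.53), SPO77 (2.81 ± 0.87), SMA2 (3.68 ± 2.52), DIT2 (4.61 ± 1.79) and OSW2 (5.17 ± 0.90 CPM per kilobase). The first 3 act in growth and closure of the prospore membrane, DIT2 makes the dityrosine precursor of the spore surface, and OSW2 acts in outer spore wall assembly. Neighbours in this low group lay within 1 SD of each other.

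The members scattered far more between libraries of the same group than most genes. The pooled SD within groups, on the log2 CPM scale, had a median of 0.93 over the members, 0.22 over the 5828 genes tested and 0.31 over the early meiotic genes. All 43 members lay above the median of all genes, and 28 lay above the 90th percentile. SPS4 scattered most (SD 1.89), followed by SPS2, a spore wall protein related to Ecm33 (1.74), and SMK1, the sporulation MAP kinase (1.63). SPO71, which shapes the prospore membrane, AMA1 and MPC54, a subunit of the meiotic outer plaque that nucleates the membrane, scattered least (0.22, 0.26 and 0.29).

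The WT libraries show what this scatter looks like. SPS4 in WT with DMSO stood at 308, 28.1 and 227 CPM in replicates 1, 2 and 3, and at 252, 23.0 and 207 CPM with IAA. SPS2 stood at 116, 14.5 and 75.9 CPM with DMSO and at 69.1, 10.4 and 61.4 CPM with IAA. Replicate 2 was low in both treatments for both genes. SPO1 stood at 822, 800 and 812 CPM in the same DMSO libraries, and AMA1 at 947, 870 and 822 CPM. Within WT DMSO the highest library exceeded the lowest by 1.03-fold (SPO1) to 11.0-fold (SPS4), with a median of 1.91-fold, and by at least 2-fold for 21 of the 43 members. Some members were thus level between replicates, while others differed several-fold.

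**Figure D1:**
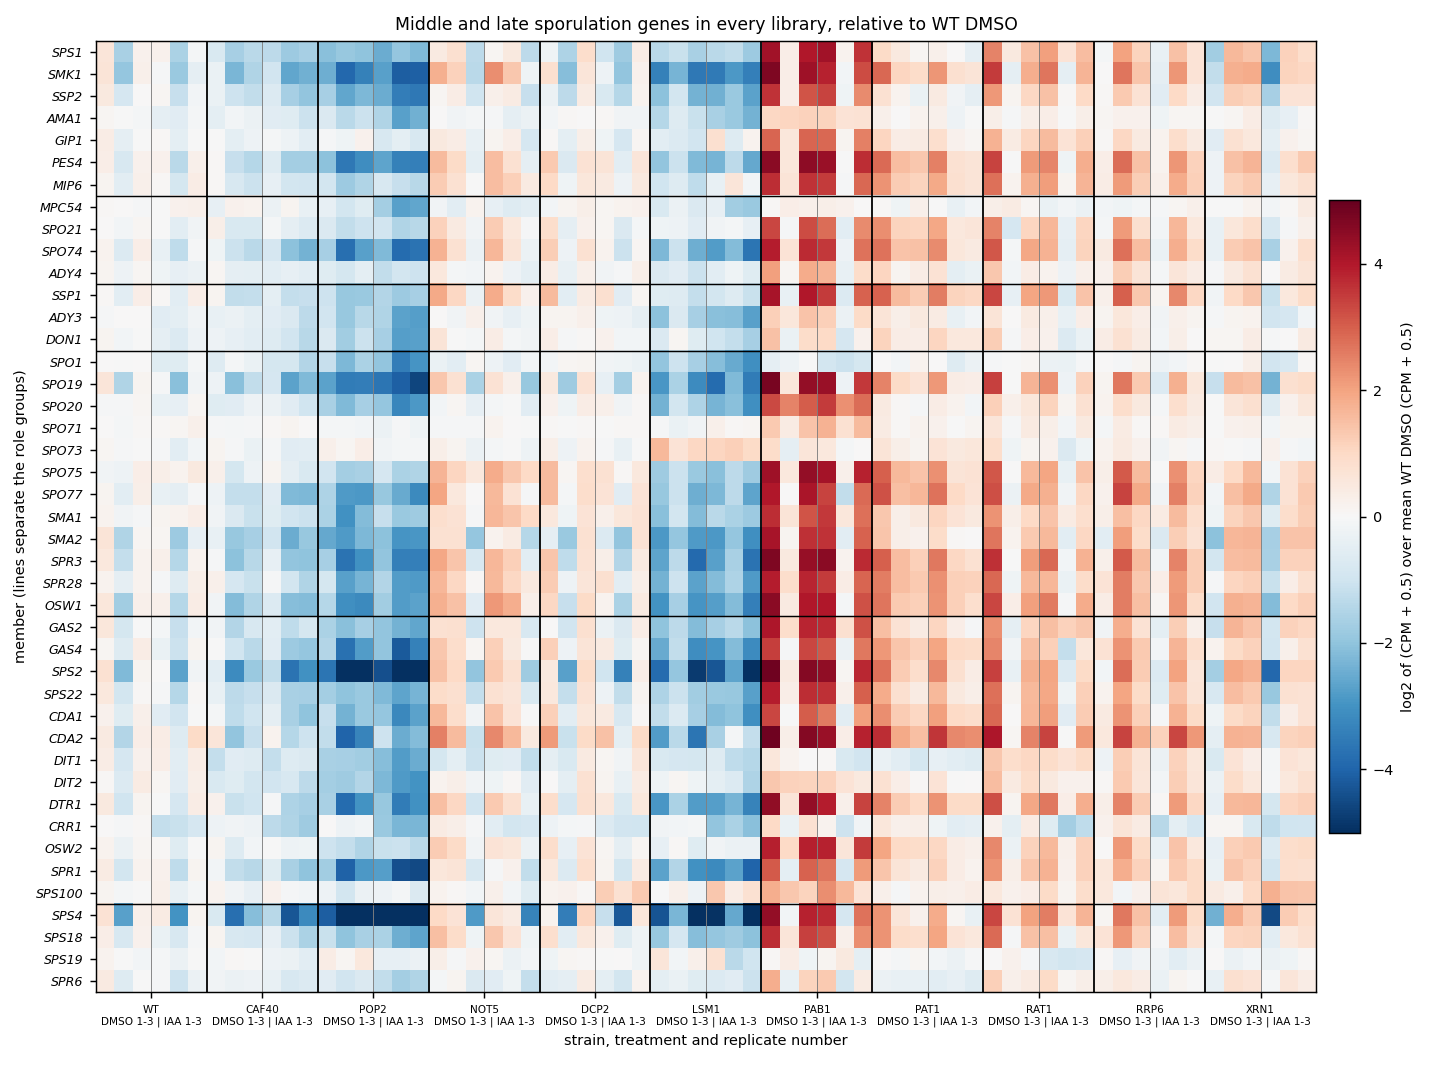
Heat map of the 43 members (rows, ordered by role group) in all 66 libraries (columns, by strain, then DMSO replicates 1 to 3 and IAA replicates 1 to 3), as log2 of CPM + 0.5 over the mean WT DMSO level. POP2 and LSM1 columns are blue for most members, PAB1 replicates 1 and 3 are red, PAB1 replicate 2 is pale, and AMA1, SPO1, MPC54 and SPO71 vary less than SPS4, SPS2 or SMK1.

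Which members differed between strains without IAA was asked by setting the DMSO libraries of each strain against WT DMSO. These 10 comparisons share the same 3 WT DMSO libraries, so they are given side by side. In the PAB1 strain most members were higher, in the POP2 and LSM1 strains most members stood lower but few passed the test, and in the other 7 strains none passed. The tag itself, any loss of the target without IAA and other differences between strains cannot be told apart in this comparison. In bulk RNA, more cells past the middle stage and more RNA per cell cannot be told apart either.

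In the PAB1 strain, 35 of 43 members were higher with DMSO than in WT with DMSO and 0 were lower (limma, adjusted p under 0.05), where 45.3% of all genes tested were called, with 22.3% of all genes higher and 23% lower, and the median log2 difference was 2.64 over the members and −0.05 over all genes. SPS2 stood at 1989, 94.5 and 1657 CPM in PAB1 DMSO replicates 1, 2 and 3, against 116, 14.5 and 75.9 CPM in WT (log2 difference 3.78, SE 1.39, adjusted p = 0.0238). SPS4 stood at 3938, 169 and 2682 CPM against 308, 28.1 and 227 CPM, a log2 difference of 3.28 that did not pass (adjusted p = 0.0908). For both genes replicates 1 and 3 were far above all WT libraries, and replicate 2 lay within the WT range, so the groups overlapped.

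The kinases, regulators and RNA-binding proteins of this list all rose in PAB1 with DMSO (7 of 7). SMK1 differed by 3.55 (SE 1.29, adjusted p = 0.0223) on the log2 scale, and AMA1 stood at 1794, 1829 and 1959 CPM against 947, 870 and 822 CPM in WT (log2 difference 1.08, SE 0.24, adjusted p = 3.47e-04). AMA1 was near level over the 3 PAB1 libraries, all above WT. Of the outer plaque genes 3 of 4 rose, and MPC54 did not pass (0.22, adjusted p = 0.45). Of the leading edge genes 2 of 3 rose. Among the prospore membrane genes 10 of 12 rose, led by SPO19, a glycosylphosphatidylinositol-anchored prospore protein (3.53, SE 1.12, adjusted p = 0.00895), and OSW1 (3.42, SE 1.15, adjusted p = 0.0136). OSW1 is counted in this group here, though it is also an outer spore wall gene. SPO20, a SNARE that fuses vesicles to the prospore membrane, stood at 603, 338 and 497 CPM against 58.4, 57.7 and 64.7 CPM. All 3 PAB1 libraries were above all 3 WT libraries for SPO20 (log2 difference 2.95, SE 0.33, adjusted p = 1.57e-09). Of the spore wall genes 11 of 13 rose, led by SPS2 (3.78) and then the chitin deacetylase gene CDA2 (3.51, SE 1.19, adjusted p = 0.0144). SPO1, by contrast, stood at 588, 672 and 792 CPM in PAB1 and at 800 to 822 CPM in WT, lower without overlap but not past the threshold (log2 difference −0.25, adjusted p = 0.51).

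The result for PAB1 rests on individual libraries. The summed member level was 24442, 5964 and 21314 CPM in PAB1 DMSO replicates 1, 2 and 3 and 4889, 3706 and 4432 CPM in WT DMSO. The count of 35 became 16 without PAB1 DMSO replicate 1, 19 without replicate 3, 23 without WT DMSO replicate 2 and 12 when only the 6 libraries compared were fitted, and it was 38 without PAB1 DMSO replicate 2. SPS2, SMK1, SPO19, CDA2 and OSW1 each lost their call in the first 3 of these refits, in the fit of the 6 libraries alone and, for SMK1, without WT DMSO replicate 3 (adjusted p from 0.0529 to 0.12). Without overlap, 17 members were higher, where 22.5% of all genes were higher in this way. Among all 66 libraries, 29 members peaked in PAB1 DMSO replicate 1 and 37 peaked in a PAB1 library. Where all other genes peaked was not counted.

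Regulators were higher in PAB1 with DMSO as well. NDT80 stood at 796, 134 and 737 CPM in PAB1 DMSO against 96.0, 92.0 and 139 CPM in WT (log2 difference 2.00, SE 0.74, adjusted p = 0.024), with replicate 2 inside the WT range. CDC5, the polo kinase and a target of Ndt80, stood at 571, 70.6 and 596 CPM against 73.5, 59.5 and 66.0 CPM (2.13, SE 0.56, adjusted p = 0.00181), and the B-type cyclin gene CLB1 differed by 1.89 (adjusted p = 0.0109). These 3 genes were high in PAB1 replicates 1 and 3 and near WT in replicate 2. The upstream genes IME1, IME2 and RIM4, an RNA-binding repressor of translation, were higher by 0.52, 0.91 and 0.73 (adjusted p = 0.00563, 0.0207 and 0.00449), without overlap with WT. IME1 stood at 4678, 5345 and 4729 CPM in PAB1 against 3921, 3358 and 3020 CPM in WT, so replicate 2 was not low. SUM1 was also higher, by 0.57 (adjusted p = 4.75e-05). The scaling factors were 0.814, 0.756 and 0.770 in PAB1 DMSO and 0.999, 1.03 and 1.05 in WT DMSO. A lower factor raises every CPM of a library, which weighs most on the smaller differences. Taken without these factors, the IME1 levels of PAB1 and WT overlap. The regulators were not refitted under another scaling. Of 18 other middle and late sporulation genes, 14 rose and 2 fell. Of the 16 early meiotic genes 5 rose and 1 fell.

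In the POP2 strain with DMSO, 10 of 43 members were lower than in WT and 0 higher, where 24.8% of all genes were called, with 12.9% lower and 11.9% higher, and the median log2 difference of the members was −1.77 against −0.03 for all genes. SPR1, a spore wall exo-glucanase, stood at 15.9, 2.78 and 6.96 CPM against 72.2, 28.4 and 60.1 CPM in WT (log2 difference −2.87, SE 0.99, adjusted p = 0.0289). GAS4, a glucan-elongating enzyme of the spore wall, stood at 19.0, 3.60 and 7.29 CPM against 56.8, 34.2 and 68.8 CPM (−2.68, SE 0.96, adjusted p = 0.0349). All 3 POP2 libraries lay below all 3 WT libraries for both genes.

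SPO20 (−1.86, SE 0.35, adjusted p = 1.13e-04), DIT2 (−1.80, SE 0.50, adjusted p = 0.00596) and SPO1 (−1.67, SE 0.29, adjusted p = 2.43e-05) completed the 5 largest called differences. By role, the 10 called members were AMA1 among the regulators, MPC54 in the outer plaque, ADY3 and DON1 at the leading edge, SPO1 and SPO20 in the prospore membrane, and GAS4, DIT1, DIT2 and SPR1 in the spore wall. SPS4 showed the largest difference, with 10.5, 1.92 and 2.93 CPM against 308, 28.1 and 227 CPM, and did not pass (−5.01, SE 2.12, adjusted p = 0.0769). Without overlap, 36 of the 43 members were lower in POP2, where 25.5% of all genes were lower in this way, and 1 was higher, where 21.4% were. The calls of SPR1 and GAS4 were lost without WT DMSO replicate 1 or 3 or POP2 DMSO replicate 2 or 3 (adjusted p from 0.0659 to 0.15). The count of called members was 32 when only the 6 libraries compared were fitted and 6 without POP2 DMSO replicate 2.

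In the LSM1 strain with DMSO, 5 members were lower and 1 higher, where 30.2% of all genes were called, with 14.6% lower and 15.6% higher, and the median log2 difference of the members was −1.56 against −0.03 for all genes. SPO20 stood at 11.2, 31.4 and 20.1 CPM against 57.7 to 64.7 CPM in WT (−1.65, SE 0.35, adjusted p = 3.37e-04), SPO1 at 206, 393 and 259 CPM against 800 to 822 CPM (−1.56, SE 0.29, adjusted p = 6.48e-05), and ADY3, a leading edge and spindle pole body protein, differed by −1.47 (adjusted p = 2.37e-04). AMA1 and MPC54 fell as well, by 1.07 and 0.60 on the log2 scale (adjusted p = 2.67e-04 and 0.0423). SPO73, which acts with SPO71 in membrane growth, was the member that rose. It stood at 55.5, 28.9 and 37.3 CPM against 19.0, 16.8 and 17.5 CPM, with no overlap (1.14, SE 0.23, adjusted p = 2.51e-04). Without overlap, 29 members were lower, where 22.3% of all genes were lower in this way, and the count of called members was 22 when only the 6 libraries compared were fitted.

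Regulators and early genes stood lower in these strains too. NDT80 stood at 53.4, 6.52 and 18.0 CPM in POP2 and at 18.1, 30.6 and 12.8 CPM in LSM1, all below the WT libraries (log2 differences −2.54 and −2.47, adjusted p = 0.0141 and 0.0137). IME2 was lower by 0.96 in POP2 and 1.11 in LSM1 on the log2 scale (adjusted p = 0.0173 and 0.00442), and IME1 did not pass in either. SUM1 and RIM4 fell in POP2 (log2 differences −0.37 and −0.69, adjusted p = 0.00789 and 0.00943) and stood at −0.11 and −0.27 in LSM1 (adjusted p = 0.47 and 0.34). A difference between the strains was not tested. Of the 16 early meiotic genes, 13 were lower in POP2 and 15 in LSM1. Their summed level was 5849 to 8927 CPM in POP2 and 4850 to 9237 CPM in LSM1, against 12717 to 13772 CPM in WT, and the part of this in the members' levels was not tested. Of all 66 libraries, the minimum of 42 of the 43 members was in a POP2 or LSM1 library. The same count over all genes was not made, so it is a description of the members only.

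In the other strains 0 members passed with DMSO against WT in limma. The share of all genes called was 0.0515% in CAF40, 0.172% in NOT5, 0.103% in DCP2, 0.0515% in PAT1, 0.755% in RAT1, 0.824% in RRP6 and 0.0515% in XRN1. At an unadjusted p under 0.05 there were 0 members in CAF40 (6.14% of all genes), 0 in NOT5 (13.1%) and 0 in DCP2 (4.65%). There were 10 in PAT1 (11.4% of all genes), 11 in RAT1 (12.8%), 3 in RRP6 (11.2%) and 1 in XRN1 (2.16%). The median log2 difference of the members was −0.63 in CAF40, 0.26 in NOT5, 0.14 in DCP2, 1.06 in PAT1, 1.33 in RAT1, 1.18 in RRP6 and 0.78 in XRN1. In PAT1, 26 members were higher without overlap, where 13% of all genes were, in RRP6 15 (12.5%) and in RAT1 8 (10.8%). RAT1 held 1 called member without its DMSO replicate 2. The members' medians lay above 0 in NOT5, DCP2, PAT1, RAT1, RRP6 and XRN1, and no single member passed the adjusted test.

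**Figure D2:**
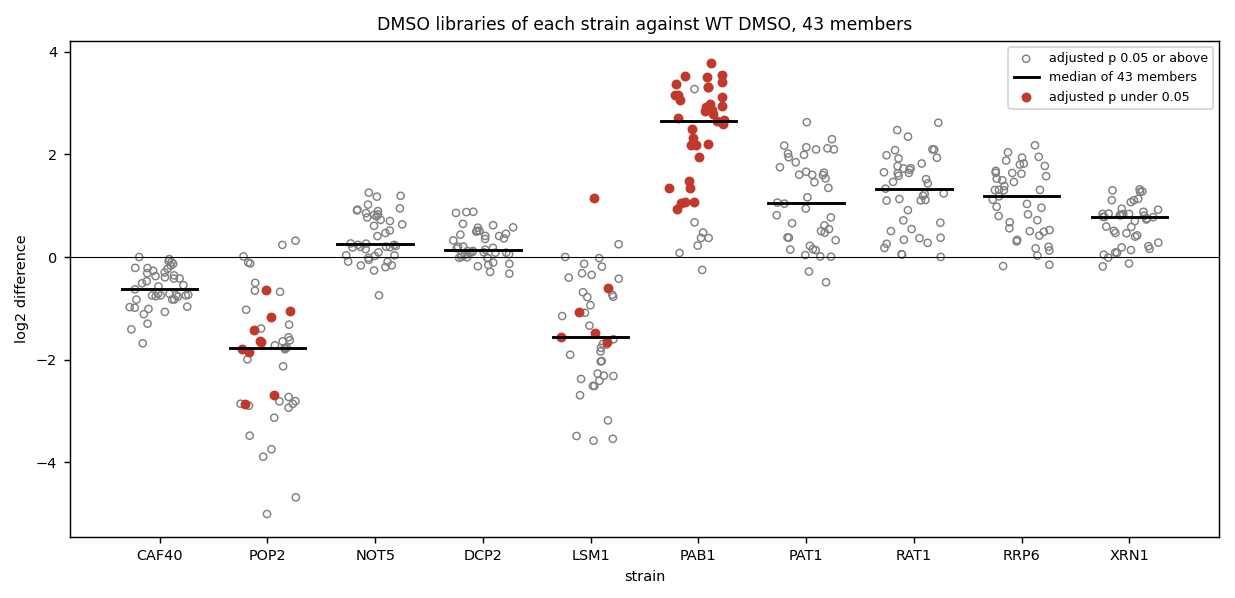
Log2 difference of each of the 43 members between the DMSO libraries of a strain and WT DMSO (y axis), by strain (x axis), with filled points at adjusted p under 0.05 and bars at the median. PAB1 has 35 filled points, all above 0, POP2 has 10, all below 0, LSM1 has 6, and the other strains have none.

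What IAA did to the members was asked within each strain. The median member stood lower with IAA in all 11 strains, WT included, and CRR1 was the member called most often. In the 8 strains whose same-numbered IAA and DMSO libraries deviated together (XRN1, RAT1, RRP6, DCP2, PAT1, LSM1, PAB1 and NOT5), the summed member level was lower with IAA in 24 of 24 same-numbered pairs, with a median ratio of 0.809 and a range of 0.534 to 0.980. This held under each of 3 scalings, and without AMA1 and SPO1 it was 23 of 24. The ratio was below 1 in more than 12 of the 24 pairs for 39 of 43 members. Pair counts were not made over all genes, so whether this is particular to the members was not tested. The summed early meiotic genes were lower in 20 of 24 pairs, NDT80 in 23, the other middle and late genes in 21, the G1 cyclins in 20 and the haploid mating genes in 13.

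**Figure D3:**
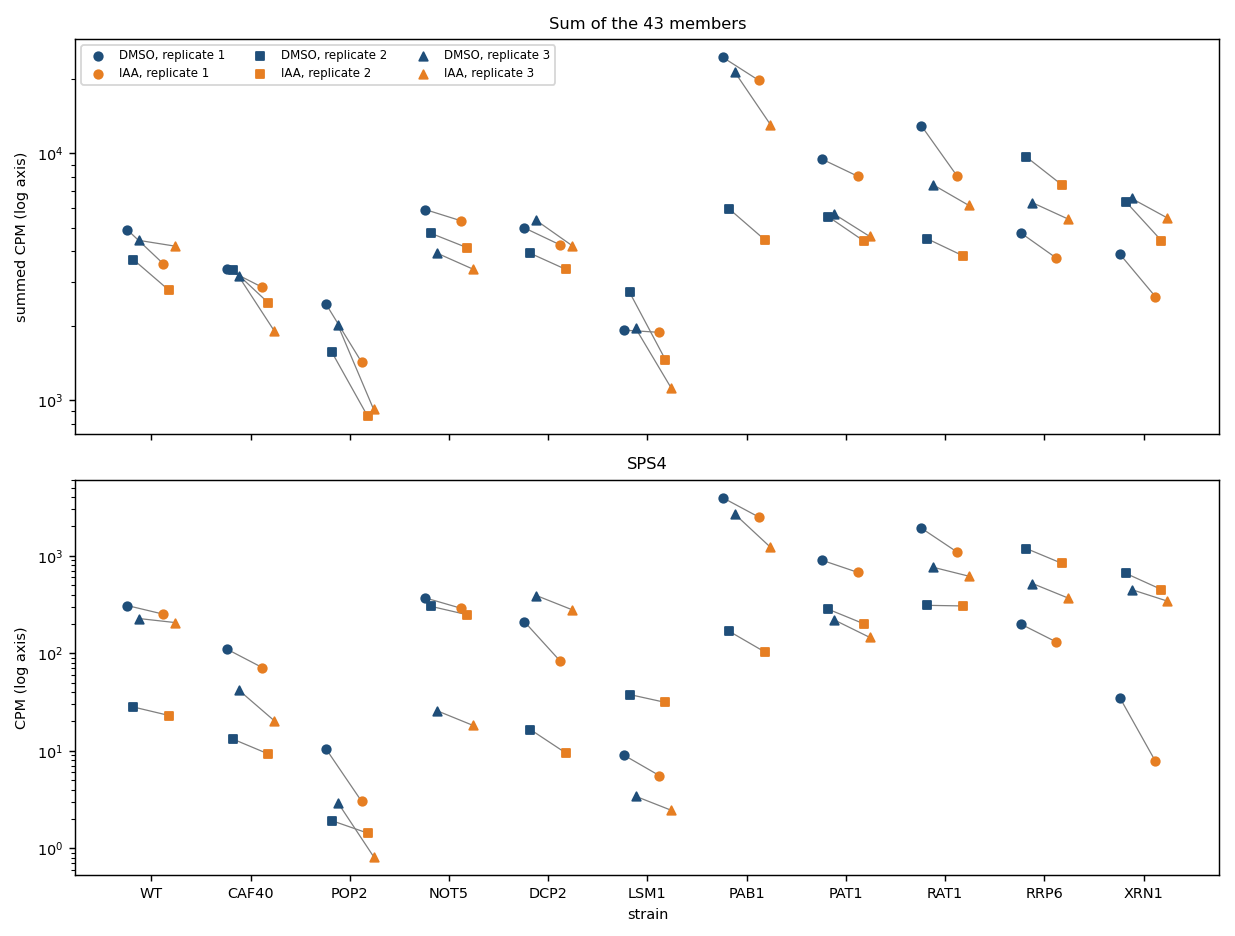
Summed CPM of the 43 members (upper panel) and CPM of SPS4 (lower panel) in each library on log axes, by strain, with DMSO in blue, IAA in orange, marker shapes for the replicate number and grey lines between same-numbered libraries. Lines slope down for the sum in all pairs, SPS4 in PAB1 DMSO stands at 3938, 169 and 2682 CPM, and WT replicate 2 lies low in both treatments.

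With no block for the replicate number, few members passed with IAA against DMSO. Beside each count stand the shares of all genes called lower and higher. In WT 1 member fell (3.41% of all genes called, 1.73% lower and 1.68% higher), in CAF40 1 fell (7.81%, 3.07% and 4.74%), and in POP2 7 fell (36.2%, 19.5% and 16.7%). In NOT5 1 fell (10.2%, 4.08% and 6.14%), and in DCP2 1 rose (1.8%, 0.704% and 1.1%). In LSM1 6 fell and 1 rose (18.5%, 10.4% and 8.13%), and in PAB1 1 fell (22.2%, 14% and 8.15%). In RAT1 2 fell (20%, 13% and 7.04%), in RRP6 1 fell (4.62%, 2.02% and 2.59%), and in XRN1 1 fell and 1 rose (8.85%, 3.5% and 5.35%). In PAT1 0 members passed in limma (1.34% of all genes) and 1 had an unadjusted p under 0.05, where 11.3% of all genes did. The median log2 change of the members lay between −0.56 (PAB1) and −0.09 (NOT5), and was −0.24 in WT, while that of all genes lay between −0.06 and 0.01.

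The replicate block raised the counts in the 8 paired strains. In NOT5 it called 4 lower and 3 higher (23.4% of all genes called, 11.4% lower and 12% higher), and in DCP2 16 lower and 2 higher (10.4%, 5.39% and 5.04%). In LSM1 it called 16 lower and 5 higher (37.3%, 19.9% and 17.4%), and in PAB1 26 lower and 1 higher (38.9%, 23.3% and 15.6%). All 10 called in PAT1 were lower (7.52% of all genes called, 3.43% lower), as were all 24 in RAT1 (33.2%, 20.1% lower) and all 20 in RRP6 (14.2%, 7.93% lower). In XRN1 it called 26 lower and 1 higher (25.5%, 12.2% and 13.3%). The outer plaque gene SPO74 was lower in 24 of 24 pairs, with a median ratio of 0.564, as were GAS4 (0.721), SPR1 (0.742), SPS4 (0.706) and CRR1 (0.523). These 5 members were picked after their pair counts were seen, and the share of all genes lower in every pair was not counted. SPO71 and SPS100 were lower in only 9 and 4 of the 24 pairs. Called higher with the block were MIP6, SMA1 and OSW1 in NOT5 (0.38, 0.88 and 0.47 on the log2 scale), DIT1 and SPS100 in DCP2 (0.41 and 0.97) and SPO71 in PAB1 (0.32). In LSM1 they were CDA2, MIP6, SPS100, GIP1 and SPO71 (1.58, 1.03, 0.88, 0.87 and 0.32), and in XRN1 SPS100 (0.96). MIP6 is an RNA-binding protein, GIP1 targets the phosphatase Glc7 and DIT1 starts dityrosine synthesis.

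**Figure D4:**
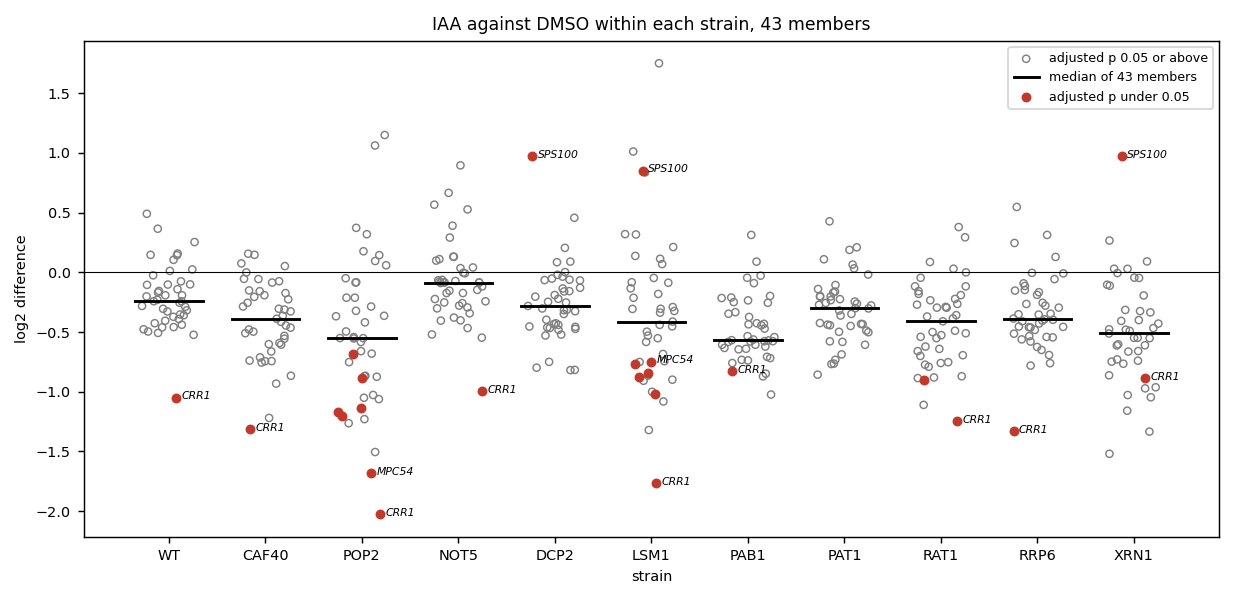
Log2 difference between IAA and DMSO libraries within each strain (y axis) for each of the 43 members, by strain (x axis), from the fit with no replicate block, with filled points at adjusted p under 0.05 and bars at the median of the members. All 11 medians lie below 0, CRR1 is filled in 9 strains, SPS100 is filled above 0 in 3 strains, and MPC54 is filled in POP2 and LSM1.

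CRR1 encodes a putative glycosidase of the spore wall related to chitin transglycosylases. In WT it stood at 87.1, 92.5 and 110 CPM with IAA and at 202, 188 and 206 CPM with DMSO. All IAA libraries were below all DMSO libraries (log2 difference −1.05, SE 0.26, adjusted p = 0.0130), in a strain whose label lists no tagged target. In POP2 it stood at 55.0, 40.0 and 40.0 CPM against 201, 167 and 180 CPM (−2.02, SE 0.27, adjusted p = 9.29e-08), and in LSM1 at 50.3, 65.5 and 45.9 CPM against 178, 182 and 184 CPM (−1.77, SE 0.26, adjusted p = 4.1e-06). The treatments did not overlap in either strain.

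In RRP6 CRR1 stood at 75.4, 140 and 111 CPM against 228, 313 and 264 CPM, and in CAF40 at 78.9, 70.7 and 57.2 CPM against 165, 176 and 168 CPM. In PAB1 the libraries overlapped, with 225, 95.6 and 177 CPM against 398, 159 and 337 CPM. CRR1 fell in RRP6 (−1.33), CAF40 (−1.31), RAT1 (−1.25), NOT5 (−0.99), XRN1 (−0.89) and PAB1 (−0.83), with adjusted p of 7.62e-04, 8.4e-04, 3.09e-04, 0.0103, 0.0244 and 0.0182. In PAT1 (−0.76, adjusted p = 0.20) and DCP2 (−0.75, adjusted p = 0.15) it did not pass without the block, and with the block adjusted p was 0.0047 and 0.00309. With no block, this change passed the test of a difference from WT in none of the 10 other strains, and the largest difference was −0.97 in POP2 (SE 0.38, adjusted p = 0.0947). With the block that difference was −0.98 (adjusted p = 0.00303). The call was lost in WT without IAA replicate 1 or 2 or DMSO replicate 1 or 3 (adjusted p from 0.0521 to 0.0685), in NOT5 without DMSO replicate 1 (0.0504), in PAB1 without IAA replicate 2 or DMSO replicate 1 or 3, and in XRN1 without IAA replicate 1 or 2 or DMSO replicate 1 or 2.

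CRR1 lies next to FRE1, a plasma membrane ferric and cupric reductase gene transcribed the other way across a gap of 644 bases, and FRE1 was looked up after CRR1's values were seen. FRE1 stood at 52.3, 67.5 and 50.8 CPM with IAA and at 196, 274 and 309 CPM with DMSO in WT (log2 difference −2.18, SE 0.37, adjusted p = 7.18e-05). It fell in all 11 strains, from −2.92 in POP2 to −1.03 in PAB1. TUB4, the neighbour on the other side across 372 bases, stood at a log2 difference of −0.31 in WT (adjusted p = 0.56) and fell in POP2 (−0.62, adjusted p = 0.0405). In LSM1 it stood at −0.61, without overlap (adjusted p = 0.0727), and in the other 8 strains between −0.36 and 0.15, with no call. CUP1-1 stood at 1831, 1668 and 1747 CPM in WT with IAA and at 9.74, 6.34 and 7.00 CPM with DMSO.

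The DMSO libraries with raised CUP1-1 were also looked up for these genes. In XRN1 DMSO, CRR1 stood at 212, 214 and 116 CPM and FRE1 at 268, 325 and 100 CPM in replicates 1, 2 and 3, while CUP1-1 stood at 6.90, 6.44 and 176 CPM. In RAT1 DMSO, CRR1 stood at 232, 142 and 265 CPM and FRE1 at 105, 62.3 and 241 CPM, while CUP1-1 stood at 29.1, 82.6 and 7.34 CPM. In both strains the DMSO library with the most CUP1-1 held the least CRR1 and the least FRE1. RAT1 DMSO replicate 1, with CUP1-1 at 29.1 CPM, held CRR1 at 232 CPM, between replicates 2 and 3. PAB1 DMSO did not show this order. Its replicate 2 had the lowest CUP1-1 of all DMSO libraries (4.37 CPM). That library also held the least CRR1 and FRE1 of its group (159 and 125 CPM). Without these 3 libraries the fall of CRR1 was −1.17 in XRN1 (adjusted p = 0.00641) and −1.62 in RAT1 (adjusted p = 0.00199). The part of copper in the change of CRR1 was not tested.

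**Figure D5:**
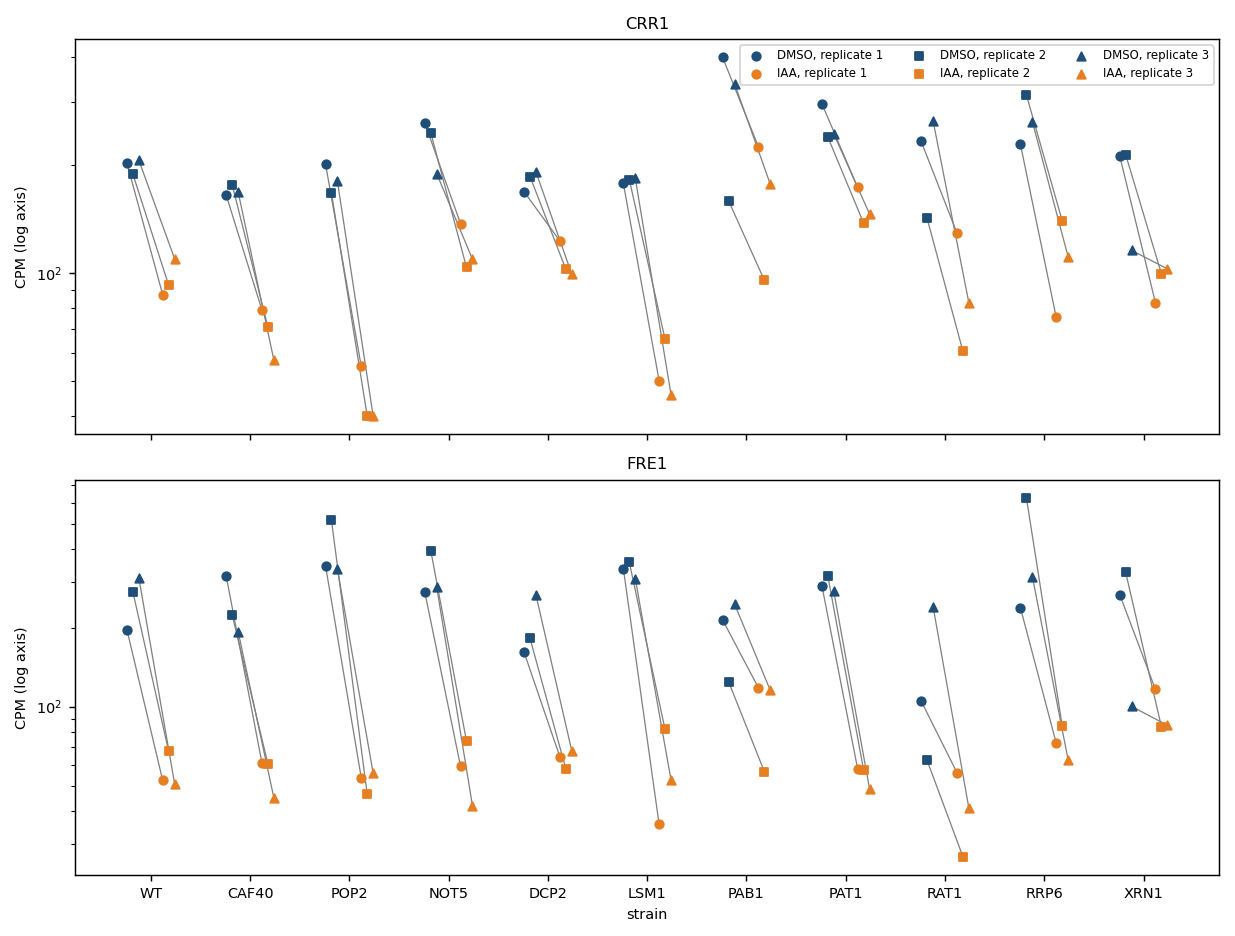
CPM of CRR1 (upper panel) and of its divergent neighbour FRE1 (lower panel) in every library on log axes, by strain, with DMSO in blue, IAA in orange and grey lines between same-numbered libraries. Both genes are lower with IAA in all strains by their means, and DMSO replicate 3 of XRN1 lies low for both (116 and 100 CPM).

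In the POP2 strain 6 members fell beside CRR1. MPC54 stood at 74.9, 37.0 and 40.7 CPM with IAA and at 186, 128 and 161 CPM with DMSO (log2 difference −1.68, SE 0.23, adjusted p = 1.45e-07). AMA1 stood at 308, 133 and 166 CPM against 529, 346 and 414 CPM (−1.17, SE 0.20, adjusted p = 6.7e-06), and neither gene overlapped between treatments. DON1 (−1.20, adjusted p = 0.00301) and SPO1 (−1.13, adjusted p = 2.92e-04) fell with overlap between the libraries, as did ADY3 (−0.88, adjusted p = 0.0109), and SPS19 fell without overlap (−0.69, adjusted p = 0.0334). The regulators IME2 (−1.56, adjusted p = 1.21e-05), RIM4 (−1.17, adjusted p = 2.25e-06), SUM1 (−0.89, adjusted p = 8.54e-09) and IME1 (−0.48, adjusted p = 0.00984) fell in the same comparison, as did 15 of 16 early meiotic genes. NDT80 did not pass (−1.01, SE 0.99, adjusted p = 0.47).

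In LSM1, AMA1 stood at 284, 242 and 171 CPM with IAA and at 326, 558 and 402 CPM with DMSO (−0.88, SE 0.20, adjusted p = 0.00119), and SPO1 (−1.02, SE 0.25, adjusted p = 0.00283) and ADY3 (−0.85, SE 0.28, adjusted p = 0.0264) fell as well, each without overlap. MPC54 and SPS19 fell with overlap, which with CRR1 makes 6. The IAA libraries of SPS19 were far apart. Replicate 1, at 306 CPM, held its highest level in all 66 libraries, so it did not fall there. Another LSM1 IAA library held its lowest level, 70.0 CPM. Of the early meiotic genes 14 of 16 fell. The calls of SPO1 and ADY3 were lost without LSM1 IAA replicate 3 or LSM1 DMSO replicate 2. The count of 7 called members was 2 without LSM1 IAA replicate 3, 4 without LSM1 DMSO replicate 2 and 1 when only the 6 libraries compared were fitted. In RAT1, SPS19 stood at 101, 95.1 and 99.8 CPM against 179, 204 and 171 CPM (−0.90, SE 0.25, adjusted p = 0.0071), and its adjusted p was 0.22 without the DMSO libraries with raised CUP1-1.

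SPS100, a late gene for a protein of spore wall maturation, was the one member called as higher with IAA in the fit with no replicate block. In XRN1 it stood at 51.1, 40.5 and 39.4 CPM with IAA and at 20.4, 17.5 and 29.4 CPM with DMSO (0.97, SE 0.26, adjusted p = 0.0108). In DCP2 it stood at 34.9, 25.3 and 37.0 CPM against 16.8, 17.3 and 15.3 CPM (0.97, SE 0.27, adjusted p = 0.0489), and in LSM1 at 37.7, 19.3 and 25.2 CPM against 14.4, 17.7 and 12.2 CPM (0.85, SE 0.28, adjusted p = 0.0262). The treatments did not overlap in these 3 strains, and in WT the levels were 17.5, 11.2 and 13.5 CPM against 16.0, 13.5 and 14.5 CPM. The difference from the WT change did not pass (adjusted p = 0.63 in XRN1, 1.00 in DCP2 and 0.51 in LSM1). SPS100 overlaps SUT169, an annotated transcript on the opposite strand, and the sources used here do not say whether the counting used strand, so reads of the pair cannot be told apart. The call was lost without any of 5 of the 6 libraries in DCP2 (all but IAA replicate 2), without IAA replicate 1 or 3 or DMSO replicate 1 or 3 in LSM1, and without IAA replicate 1 or DMSO replicate 2 in XRN1. It was also lost in all 3 strains when only the 6 libraries of a strain were fitted.

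Whether depletion changed a member beyond the change in WT was tested as an interaction. With no replicate block, MPC54 in POP2 was the one member that passed, where 9.69% of all genes did, 3.5% with a lower and 6.19% with a higher change. It changed by −1.68 in POP2, and in WT it stood at 244, 282 and 292 CPM with IAA against 257, 247 and 233 CPM with DMSO, so the difference between the strains was −1.83 (SE 0.33, adjusted p = 2.03e-04). In each alternative run it kept its direction and stayed below an adjusted p of 0.05, also without any of the 12 libraries.

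In the other 9 strains 0 members passed this test in limma with no replicate block, where the share of all genes called was 0% in CAF40, 0.326% in NOT5, 0% in DCP2, 0.48% in LSM1, 1.37% in PAB1, 0.0515% in PAT1, 6.88% in RAT1, 0.0172% in RRP6 and 0% in XRN1. At an unadjusted p under 0.05 there were 2 members in LSM1 (8.46% of all genes), 1 in DCP2 (3.19%), 1 in RAT1 (15.4%) and 1 in XRN1 (5.63%). There were 0 in CAF40 (2.64%), NOT5 (8.65%), PAB1 (12.1%), PAT1 (4.32%) and RRP6 (2.88%). LSM1 held 2 called members without IAA replicate 1, and POP2 held 3 without IAA replicate 1. The replicate block, under numbers that were not shown to pair the WT or POP2 libraries, changed these calls. It called 7 members in POP2 (23.3% of all genes), 6 in RAT1 (13.7%), 3 in LSM1 (3.88%), 2 in PAB1 (8.84%) and 1 in NOT5 (4.36%). Those with the lowest adjusted p beside MPC54 were GAS4 in RAT1 (−0.73, adjusted p = 0.0018), MIP6 in LSM1 (1.12, adjusted p = 0.00238), CRR1 in POP2 and DIT1 in PAB1 (−0.91, adjusted p = 0.00324).

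The members with and without the 9-letter element were set side by side as a description. The pooled SD between libraries had a median of 1.03 over the 24 members with the element and 0.47 over the 19 without it. In PAB1 with DMSO the median log2 difference from WT was 2.894 with the element and 1.479 without it, and 20 of 24 and 15 of 19 were called (45.3% of all genes). In POP2 with DMSO the median log2 difference was −1.88 and −1.67, and 2 of 24 and 8 of 19 were called (24.8%). In LSM1 with DMSO it was −1.805 and −1.086, and 0 of 24 and 6 of 19 were called (30.2%). A call also depends on the SD between libraries, so the call counts do not compare the size of the differences. A difference between the classes was not tested. Both classes overlapped: OSW1, without the element, had an SD of 1.37, and SPS19, which shares its site with SPS18, had 0.32. SPS18 had an SD of 0.86 with the same element between the genes.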

How the data were processed

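The deposited table gives whole-number counts per gene for 66 libraries of poly(A)-selected, paired-end RNA, made by the authors; rows of principal component scores above the genes and 6 columns of no library in this series were not used. STAR 2.7.10a, RSEM 1.3.1 and DESeq2 1.48.1 are named in the submitters' processing notes. The genome build, the annotation and the strand setting of the counting are not given in the sources used here. Gene IDs were matched to RefSeq R64 symbols, which 5626 of 6171 rows have, and promoters and neighbours come from RefSeq R64.

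Genes with at least 0.484 CPM in 3 libraries and 15 counts in all were kept (5828 genes). Log2 CPM with a pseudocount of 0.5 counts, scaled by the trimmed mean of M-values, was fitted with limma 3.58.1 and voom weights in R 4.3.3, with 1 mean per group over all 66 libraries, giving 44 residual degrees of freedom. Tests were two-sided, and p-values were adjusted by Benjamini-Hochberg over all genes within each of 31 comparisons. A test used simulated data for POP2 IAA against DMSO with 5828 genes. It recovered 75% of genes changed 2-fold and 100% of genes changed 4-fold. Every simulated gene had the same dispersion, whereas the members' SD within groups had a median of 0.93 against 0.22 over all genes. These shares therefore do not describe the members. Python 3 scripts with matplotlib drew the figures.

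Same-numbered IAA and DMSO libraries were taken as pairs where the residual correlation over genes was above 0.1 in every pair. It was in 8 strains, and not in WT (lowest −0.16), CAF40 (0.0096) or POP2 (0.011), and no label says what a number marks. Alternatives were a replicate block, 2 other scalings, no filter and a fit of the groups compared alone. Each library was also left out in turn, and the 3 DMSO libraries with raised CUP1-1 were left out together. The block joined same-numbered libraries within a strain for the tests with IAA. For DMSO against WT it joined same-numbered DMSO libraries of all strains, and that pairing was not checked.

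Named with values were up to 5 called members per comparison with the largest change and at least 1 CPM, the 5 highest and 5 lowest members per kilobase in WT DMSO, and 7 regulators; other named members were picked after their values were seen. The members and lists were chosen with earlier results of these data known.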

Additional observations from a re-analysis of the deposited data

Results flagged for a closer look

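The change of MPC54 with IAA in POP2 differed from the change in WT by −1.83 on the log2 scale (SE 0.33, limma interaction test, adjusted p = 2.03e-04), the one member that passed this test with no replicate block. Its IAA libraries stood at 74.9, 37.0 and 40.7 CPM against 186, 128 and 161 CPM with DMSO, lower in 3 of 3, while WT stood at 244 to 292 CPM with IAA and 233 to 257 CPM with DMSO. Over the alternatives, adjusted p ranged from 2.08e-05 to 0.00685. No cause was tested.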

How the results depend on the processing

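No named change reversed direction under any alternative. With the replicate block, IAA against DMSO called 8 members in WT (13.9% of all genes), 15 in CAF40 (24%), 19 in POP2 (49.4%), 7 in NOT5, 18 in DCP2, 21 in LSM1, 27 in PAB1, 10 in PAT1, 24 in RAT1, 20 in RRP6 and 27 in XRN1, and the change beyond WT called 7 in POP2 (23.3% of all genes), 1 in NOT5 (4.36%), 3 in LSM1 (3.88%), 2 in PAB1 (8.84%) and 6 in RAT1 (13.7%). In WT, CAF40 and POP2 the numbers are shared without a shown pairing. The block changed no other count by more than 1.5 times. For DMSO against WT it joined the same number across strains, with no shown pairing. Median-of-ratios scaling and no filter each left 0 members in DCP2 with IAA, and total counts gave 3 in PAB1. Fitting only the groups compared gave, with IAA, 11 in POP2, 0 in NOT5, 1 in LSM1, 0 in PAB1 and 0 in XRN1, for the change beyond WT 2 in POP2 and 2 in RAT1, and with DMSO against WT 32 in POP2, 22 in LSM1 and 12 in PAB1. Without the DMSO libraries with raised CUP1-1, RAT1 with IAA held 1. Leaving out each library in turn gave, with IAA, 0 to 1 in WT, NOT5 and DCP2, 2 to 7 in LSM1, 0 to 5 in PAB1, 2 to 4 in RAT1 and 0 to 4 in XRN1; for the change beyond WT 1 to 3 in POP2 and 0 to 2 in LSM1; with DMSO against WT 6 to 10 in POP2, 16 to 38 in PAB1 and 0 to 1 in RAT1. Of the named changes, 15 lost their call with only the groups compared and 51 of the leave-one-out fits did. The causes were not tested. SMK1 and SPO77 had 3 counts or fewer in 3 libraries each and SMA2 in 7, which limits their precision and bears on their scatter. With 3 libraries per group a p above the threshold does not show that a member stayed level.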
